A study of Mus musculus with 20 samples.

Results

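The collagen chain genes were followed in hearts of mice with and without the de novo DNA methyltransferases Dnmt3a and Dnmt3b in cardiomyocytes, after sham surgery and after transverse aortic constriction (TAC), which narrows the aorta and loads the left ventricle with pressure. Members were all probes annotated to 1 gene whose symbol is Col, a number, the letter a and a number, which gave 91 probes of 41 genes among 45281 probes on the Illumina bead chip. Control mice (CTL) carried floxed Dnmt3a fl/fl and Dnmt3b fl/fl alleles without Cre. Double knockout mice (DKO) carried the same floxed alleles and a Cre driven by the Myl7 promoter, that of atrial myosin light chain 2, so that the exons of the catalytic domains were lost in cardiomyocytes of atria and ventricles only, and recombination in these cells was not complete. Male mice were operated at 10 to 12 weeks of age and left ventricular tissue was taken 4 weeks later, at 14 to 16 weeks. With 1 heart per array, there were 4 arrays of each genotype after sham surgery and 6 of each after TAC. In bulk tissue, a change in the number of cells of a type and a change of RNA per cell cannot be told apart. Col6a3, Col12a1 and Col20a1 had no probe under their names and were not analysed here.

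Collagens are secreted proteins built of 3 chains wound into a helix, and each Col gene encodes 1 chain. In the heart, fibroblasts make most of the fibrillar collagens of types I, III and V, which form the fibers between muscle bundles and accumulate in fibrosis. Type IV chains form the sheet of the basement membrane around cardiomyocytes and vessels, and type VI chains form beaded filaments next to it. Short-chain collagens of type VIII form networks beneath the endothelium. FACIT collagens (fibril-associated collagens with interrupted triple helices) sit on the surface of fibrils, and multiplexins (types XV and XVIII) join basement membranes to the matrix and carry the sequences of restin and endostatin. Transmembrane collagens stay in the cell membrane. Chains are hydroxylated, folded and glycosylated in the endoplasmic reticulum, trimmed outside the cell and cross-linked by lysyl oxidases.

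Promoter sequences were at hand in RefSeq (build GRCm38.p6) for 33 of the 41 genes, as 36 windows of 250 bases before to 50 bases after a transcription start. The 120 bases before the start are shown for both type VIII chains, which rose after TAC, for Col3a1, which fell, and for Col1a2, which was not called in any comparison. Capitals mark the searched motifs on either strand, with TATAAA searched for the TATA box, with CCAAT for the box of that name and with GGGCGG for the GC box, of which neighbours may overlap.
Col8a1, chr16:57754738-57754857, minus strand: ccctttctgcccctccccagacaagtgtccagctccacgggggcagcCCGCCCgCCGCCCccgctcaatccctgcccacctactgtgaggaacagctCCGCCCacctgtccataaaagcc
Col8a2, chr4:126286674-126286793, plus strand: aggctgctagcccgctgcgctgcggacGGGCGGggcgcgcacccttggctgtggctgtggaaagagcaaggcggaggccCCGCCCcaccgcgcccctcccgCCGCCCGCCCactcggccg
Col3a1, chr1:45311418-45311537, plus strand: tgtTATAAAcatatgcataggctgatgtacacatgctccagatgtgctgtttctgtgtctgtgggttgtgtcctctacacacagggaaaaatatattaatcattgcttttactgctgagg
Col1a2, chr6:4505498-4505617, plus strand: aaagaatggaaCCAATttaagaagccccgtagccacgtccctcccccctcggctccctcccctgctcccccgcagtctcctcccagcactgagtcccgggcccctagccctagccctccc
The Col8a1 stretch held 3 GC boxes and the Col8a2 stretch 4, the Col3a1 stretch 1 TATA box and the Col1a2 stretch 1 CCAAT box. Over the whole windows, a GC box was found in 63.9% of collagen windows (23 of 36) and in 35.7% of all 32851 mouse windows. The TATA box was found in 13.9% and 13.6%, and the CCAAT box in 36.1% and 37.4%. These are matches of letters and were not tested. Neighbouring genes on a chromosome included Col3a1 with Col5a2, Col6a2 with Col6a1, Col4a1 with Col4a2, Col4a4 with Col4a3 and Col4a6 with Col4a5.

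The deposited sham and TAC values had been normalized as separate sets, since the sorted values were equal within each set and differed between the sets. Surgery and set can therefore not be told apart, neither for a shift of all probes nor for a change of a single probe. Whether the sets were also measured apart is not known, and no scaling separates surgery from set for a single probe. All arrays were brought to 1 distribution by quantile normalization before the fit, and the effect of other scalings is given beside the TAC results. Correlations between arrays of a group were 0.98 to 0.99. All 3 Dnmt3a probes and 1 of 2 Dnmt3b probes were near background in all groups, and their position relative to the deleted exons was not known, so that they check nothing. All 9 measured cardiomyocyte genes were above background in every group.

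A probe was near background in a group where its mean lay below the 95th percentile of 1504 olfactory and vomeronasal receptor probes, at normalized intensities of 58.3 to 64.0 over the groups. By this measure 34 probes of 25 collagen genes were above background in at least 1 group. The other 57 probes were near background throughout, with intensities from 34.6 to 74.2 on single arrays, and none of them was called in any comparison. All probes of 16 genes fell here, namely the cartilage chains Col2a1, Col9a2, Col9a3, Col10a1 and Col27a1, the skin chains Col7a1 and Col17a1, the transmembrane chains Col13a1 and Col23a1, and Col4a6, Col6a4, Col6a5, Col6a6, Col19a1, Col24a1 and Col28a1. In the following, ± after an intensity is an SD and ± after a log2 fold change an SE. Levels are intensities of single probes and are compared between groups only.

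After TAC, probes of 6 collagen classes were called higher, of which the fibrillar, short-chain and FACIT classes kept a called probe when arrays were centred on their medians and the basement membrane, beaded filament and multiplexin classes did not. No collagen probe was called between DKO and CTL hearts. After TAC, 16 of 91 probes (13 genes) rose in CTL hearts and 1 fell, by limma with an adjusted p under 0.05 and a change larger than 1.5-fold. Of all 45281 probes, 1.76% rose and 3.4% fell in the same comparison. In DKO hearts 15 collagen probes (13 genes) rose and 1 fell, against 2.46% and 4.27% of all probes. The risers were Col1a1 and Col5a1 among the fibrillar chains, Col8a1 and Col8a2, Col4a2 and Col4a5, Col6a1 and Col6a2, Col14a1 and Col16a1, and Col15a1 and Col18a1. Col22a1 was called in CTL hearts and Col4a4 in DKO hearts only, and in neither gene did the interaction of genotype and surgery pass. Col3a1 was the probe that fell in both genotypes. The median log2 fold change of the 91 probes was 0.03 in CTL and 0.05 in DKO hearts, against 0.01 and 0.02 over all probes. Of these 91 probes 57 were near background in all groups, so the median does not tell how many of the expressed chains changed. In every array of TAC against every array of sham, 12 collagen probes were higher in CTL and 20 in DKO hearts, against 8.37% and 11.1% of all probes. Both TAC comparisons use separate sham groups and are given side by side.

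**Figure D1:**
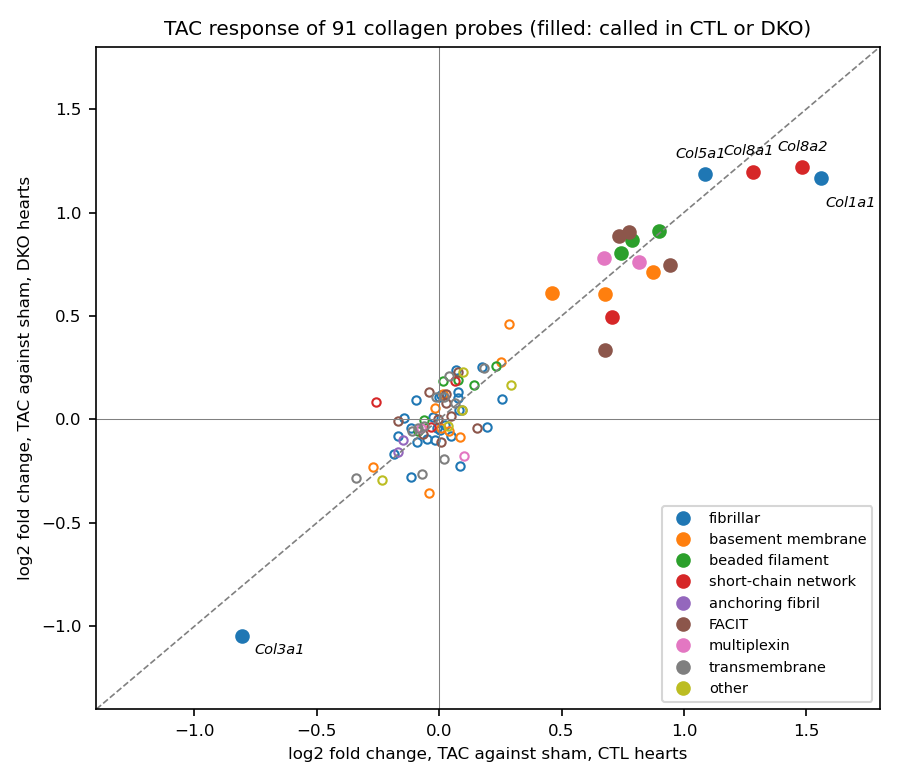
Log2 fold change of each of the 91 collagen probes after TAC in CTL hearts (horizontal axis) and in DKO hearts (vertical axis), coloured by collagen class, with filled points for probes called in either comparison and a dashed line of equal change. Called probes lie along the line, Col3a1 alone at the lower left, and the open points lie around 0.

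The fibrillar class had 27 probes of 11 genes, of which 9 probes of 8 genes were above background in some group. Of these 27 probes, 2 rose and 1 fell after TAC in CTL hearts, and the same numbers were found in DKO hearts. The chains of type I collagen, the main fiber of the heart, gave different readings. Col1a1 stood at 269, 245, 239 and 210.5 in sham CTL hearts and at 269.7, 264, 284 and 262 in sham DKO hearts. After TAC its intensity ranged from 362 to 1111 (median 908) in CTL and from 391 to 935 (median 608) in DKO hearts. Every TAC array was above every sham array, and 2 TAC CTL hearts (replicates 2 and 6, at 377 and 362) were far below the other 4. The change was 2.95-fold in CTL hearts (log2 fold change 1.56 ± 0.26, limma adjusted p = 0.000101) and 2.24-fold in DKO hearts (1.17 ± 0.26, adjusted p = 0.00153).

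Col1a2, the partner chain of type I collagen, was read by 1 probe. It stood at 129, 132, 123 and 144 in sham CTL and 111, 134, 143 and 109.9 in sham DKO hearts. After TAC it ranged from 90.7 to 189.5 (median 134) in CTL and from 101 to 144 (median 113) in DKO hearts, overlapping the sham values. The log2 fold change was -0.02 in CTL hearts (95% interval -0.32 to 0.28) and -0.10 in DKO hearts (-0.40 to 0.20), and neither passed (adjusted p = 0.951 and 0.654). These intervals lie wholly below those of Col1a1, which were 1.02 to 2.10 and 0.62 to 1.71. Where in the transcripts the probes lie was not known.

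Col3a1 encodes the chain of type III collagen, which forms thin, compliant fibers. Its brighter probe stood at 399, 368, 253 and 322 in sham CTL hearts and at 289, 305, 417 and 280.2 in sham DKO hearts. After TAC it ranged from 129 to 290.3 (median 183) in CTL and from 114 to 196 (median 162) in DKO hearts. The groups overlapped in CTL hearts, where TAC replicates 4 and 5 reached the sham range, and did not overlap in DKO hearts. The probe fell by 0.81 on the log2 scale in CTL hearts (SE 0.20, adjusted p = 0.00482) and by 1.05 in DKO hearts (SE 0.20, adjusted p = 0.000329). The other Col3a1 probe was near background in every group, so this fall rests on a single probe.

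Type V collagen starts the assembly of fibrils and sets their width. Col5a1 stood at 675, 661, 550.3 and 525 in sham CTL and 581, 642, 631 and 497 in sham DKO hearts. It ranged from 825 to 1808 (median 1340.0) in TAC CTL hearts and from 1089 to 1748 (median 1284) in TAC DKO hearts. No TAC value fell into the sham range of its genotype, and the rise was 2.12-fold in CTL (log2 1.09 ± 0.16, adjusted p = 2.67e-05) and 2.27-fold in DKO hearts (1.19 ± 0.16, adjusted p = 6.24e-06). Col5a2, its partner chain, was dim. The brightest of its 5 probes had means of 57.7 ± 7.74, 60.7 ± 6.73, 69.6 ± 12.5 and 65.3 ± 9.40 (SD) in CTL and DKO hearts after sham surgery, then CTL and DKO hearts after TAC. These ranges overlapped, with log2 fold changes of 0.26 and 0.10 (adjusted p = 0.168 and 0.621). Col5a3 had group means of 64.3 to 67.1, and the minor chains Col11a1 and Col11a2 of 52.2 to 67.2 over their probes above background, none of which was called.

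**Figure D2:**
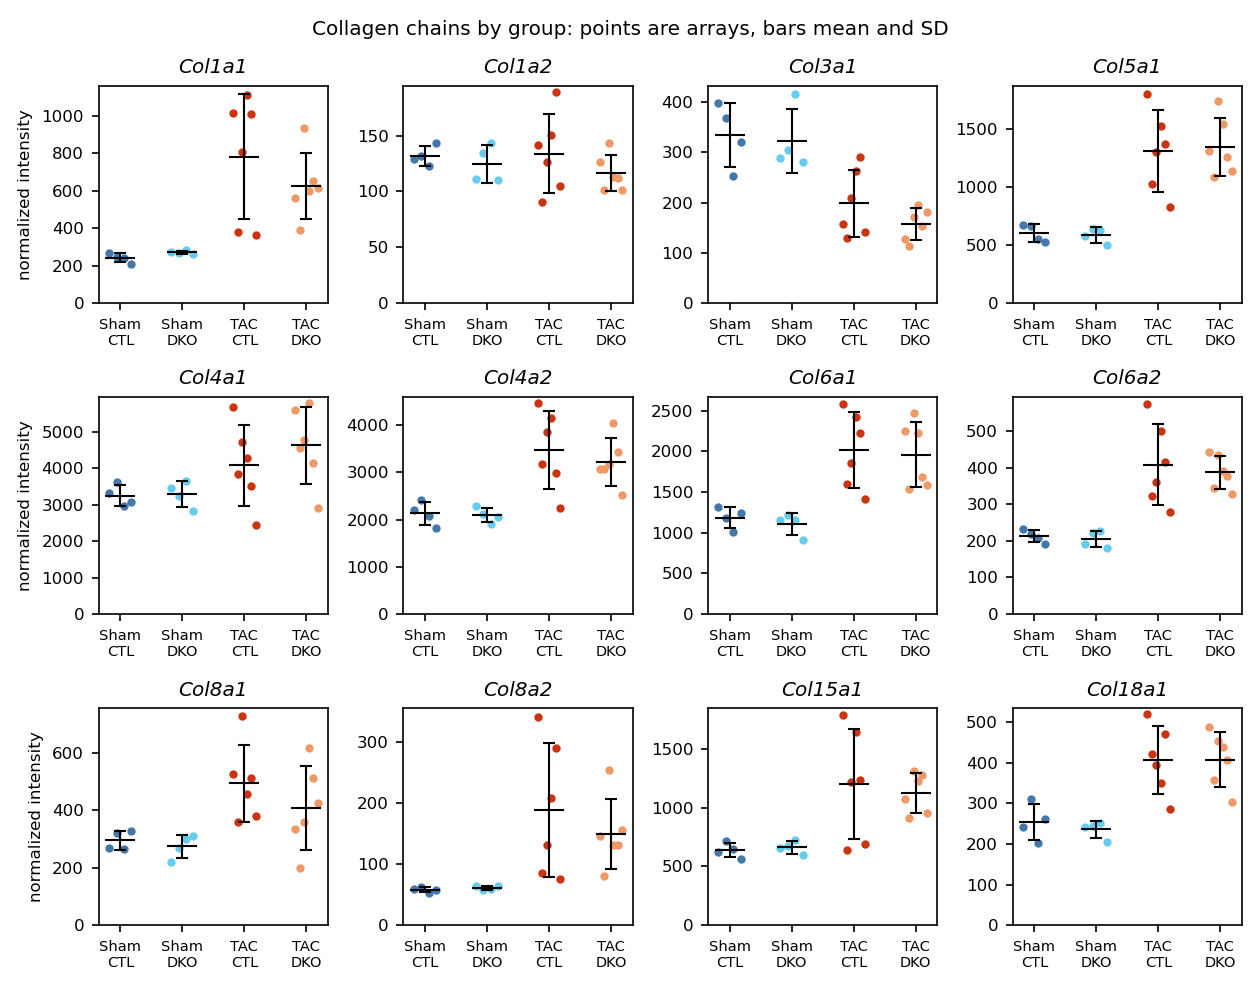
Normalized intensity (vertical axis, linear and starting at 0) of the brightest probe of 12 collagen genes in the 4 groups (horizontal axis). Points are arrays and bars the mean and SD of 4 sham or 6 TAC arrays. In Col1a1 and Col15a1, 2 TAC CTL points lie well below the other 4, Col3a1 is lower after TAC, and Col1a2 overlaps in all groups.

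The short-chain network class had 6 probes of 3 genes, of which 3 rose in CTL and 2 in DKO hearts after TAC. Col8a2 was barely above or near background in sham hearts, at 59.2, 62.2, 52.4 and 56.5 in CTL and 63.1, 56.8, 59.5 and 63.2 in DKO. It ranged from 74.8 to 341 (median 169) in TAC CTL hearts and from 79.4 to 253 (median 139) in TAC DKO hearts. All TAC values were above the sham values, with replicates 2 and 6 lowest among TAC CTL hearts. Since the sham CTL mean was near background, the log2 rise in CTL hearts was at least 1.40 (fitted 1.48 ± 0.33, adjusted p = 0.00159). In DKO hearts the log2 fold change was 1.22 ± 0.33 (adjusted p = 0.0065). A second Col8a2 probe was above background in sham CTL hearts only (69.1 ± 7.21) and read -0.26 and 0.08, neither called, and the third was near background.

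Col8a1 had 2 probes, both above background. The brighter one stood at 268, 320.5, 266 and 328 in sham CTL and 221, 270.0, 300.0 and 311 in sham DKO hearts, and ranged from 361 to 731 (median 484) in TAC CTL hearts and from 199.6 to 617 (median 392) in TAC DKO hearts. Sham and TAC values were apart in CTL hearts, whereas in DKO hearts TAC replicate 2 lay below all sham values. The log2 fold change was 0.71 ± 0.22 in CTL (adjusted p = 0.0215) and 0.49 ± 0.22 in DKO hearts (adjusted p = 0.0997, not called). The call in CTL hearts was lost without sham CTL replicate 1 (0.66, adjusted p = 0.0632), sham CTL replicate 3 (0.66, adjusted p = 0.0622) or TAC CTL replicate 3 (0.59, adjusted p = 0.0545), and the change in DKO hearts was called without TAC DKO replicate 2 (0.68, adjusted p = 0.0065). The other probe rose more, by 2.43-fold in CTL (log2 1.28 ± 0.22, adjusted p = 0.000149) and 2.29-fold in DKO hearts (1.20 ± 0.22, adjusted p = 0.000229). Its values were 149, 136, 112 and 168 in sham CTL, 122, 144, 142 and 147 in sham DKO, 216 to 559.5 (median 342) in TAC CTL hearts and 201 to 480.3 (median 294) in TAC DKO hearts, without overlap between sham and TAC. Col10a1 was near background in all groups.

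The basement membrane class held 12 probes of 6 genes, with 7 probes of 5 genes above background. After TAC 2 probes rose in CTL and 3 in DKO hearts, and none fell. Col4a1 and Col4a2 encode the chains of the common type IV collagen and were among the bright members. Col4a2 stood at 2214, 2420.1, 2075 and 1819.6 in sham CTL and 2291, 2127, 1913 and 2061 in sham DKO hearts. It ranged from 2241 to 4468 (median 3522) in TAC CTL hearts and from 2527 to 4054 (median 3129) in TAC DKO hearts, with 1 TAC CTL heart inside the sham range and no overlap in DKO hearts. It rose 1.6-fold in CTL (log2 0.68 ± 0.15, adjusted p = 0.00125) and 1.52-fold in DKO hearts (0.61 ± 0.15, adjusted p = 0.00263). The call in DKO hearts was lost without sham DKO replicate 3 (0.56) or TAC DKO replicate 4 (0.54), each just below the fold threshold. Col4a1 stood at 3326, 3607, 2949 and 3078 in sham CTL and 3440.1, 3226, 3649 and 2835 in sham DKO hearts. It ranged from 2429 to 5671 (median 4061) in TAC CTL hearts and from 2909 to 5778 (median 4656) in TAC DKO hearts, overlapping the sham groups. Its log2 fold changes of 0.29 ± 0.18 (adjusted p = 0.287) and 0.46 ± 0.18 (adjusted p = 0.0575) did not pass. Median centring gave -0.17 in CTL and 0.0032 in DKO hearts, neither called. Without TAC DKO replicate 6, the change in DKO hearts was 0.59 (adjusted p = 0.00819) and was called.

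The chains Col4a3, Col4a4 and Col4a5 are best known from the filter of the kidney. The probes of Col4a5, an X-linked chain, did not move alike. The brighter probe had means of 344 ± 70.5 in sham CTL, 405 ± 44.9 in sham DKO, 334 ± 62.3 in TAC CTL hearts and 318 ± 50.4 in TAC DKO hearts, and its log2 fold changes were -0.04 and -0.36 (adjusted p = 0.876 and 0.0578). The dimmer probe had means of 186 ± 24.6, 209 ± 21.8, 339 ± 29.2 and 346 ± 69.6 in the same order, with no overlap between sham and TAC arrays. It rose 1.83-fold in CTL (log2 0.87 ± 0.12, adjusted p = 5.25e-06) and 1.64-fold in DKO hearts (0.71 ± 0.12, adjusted p = 4.67e-05). Col4a4 was dim, at 72.3, 72.0, 65.9 and 71.6 in sham CTL, 67.9, 66.5, 74.4 and 71.5 in sham DKO, 84.0 to 117 (median 94.4) in TAC CTL hearts and 90.2 to 125 (median 108) in TAC DKO hearts. All its TAC values were above the sham values. The log2 fold change was 0.46 ± 0.09 in CTL hearts (adjusted p = 0.000492, below the fold threshold) and 0.61 ± 0.09 in DKO hearts (adjusted p = 1.34e-05, called). That call was lost without sham DKO replicate 2 (0.58) or TAC DKO replicate 4 (0.57), both just below the fold threshold. A second Col4a4 probe, near background after TAC, read -0.27 and -0.23 and was not called.

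Of the 9 beaded filament probes (5 genes), 3 rose in each genotype, and all 3 belonged to the neighbouring genes Col6a1 and Col6a2. Col6a1 stood at 1311, 1182, 1007 and 1238 in sham CTL and 1154, 1215, 1153 and 913 in sham DKO hearts and ranged from 1412 to 2585 (median 2042) in TAC CTL hearts and from 1539 to 2476 (median 1954) in TAC DKO hearts. Sham and TAC did not overlap within either genotype. It rose 1.67-fold (log2 0.74 ± 0.16, adjusted p = 0.00107) and 1.75-fold (0.81 ± 0.16, adjusted p = 0.000353) in CTL and DKO hearts. A second Col6a1 probe gave log2 fold changes of 0.79 and 0.87, both called. Col6a2 stood at 233, 219.8, 207 and 193 in sham CTL and 191, 222, 228 and 181 in sham DKO hearts and ranged from 279 to 574 (median 388) in TAC CTL hearts and from 329 to 443 (median 385) in TAC DKO hearts, again without overlap. It rose 1.87-fold (log2 0.90 ± 0.14, adjusted p = 5.73e-05) and 1.88-fold (0.91 ± 0.14, adjusted p = 3.48e-05). A dim second probe of Col6a2 read 0.23 and 0.26 and was not called. Col6a4, Col6a5 and Col6a6 were near background.

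The FACIT class had 14 probes of 7 genes, of which 4 probes of 3 genes rose in CTL and 3 probes of 2 genes in DKO hearts. Col14a1, which regulates the growth of fibrils, was seen by 2 probes. The brighter probe stood at 96.4, 103, 95.2 and 91.2 in sham CTL and 104, 87.2, 108 and 85.3 in sham DKO hearts and ranged from 102 to 207 (median 178) in TAC CTL hearts and from 156 to 222 (median 164) in TAC DKO hearts. Only the lowest TAC CTL heart reached the sham range. Its log2 fold change was 0.74 ± 0.15 in CTL (adjusted p = 0.000817) and 0.88 ± 0.15 in DKO hearts (adjusted p = 8.64e-05). The dimmer probe gave 0.78 ± 0.11 (adjusted p = 1.12e-05) and 0.91 ± 0.11 (adjusted p = 9.4e-07), with no overlap.

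Col16a1, a minor chain of connective tissue and vessel walls, stood at 253, 241, 200.2 and 209.6 in sham CTL and 257, 262, 255 and 188 in sham DKO hearts. It ranged from 252 to 624 (median 495) in TAC CTL hearts and from 317 to 507 (median 406) in TAC DKO hearts. Only the lowest TAC CTL value touched the sham range. The log2 fold changes were 0.94 ± 0.19 (adjusted p = 0.00074) and 0.75 ± 0.19 (adjusted p = 0.00465). Col22a1, known from muscle and tendon junctions, was near background in sham hearts, at 53.6, 54.1, 46.3 and 51.3 in CTL and 60.7, 53.3, 62.9 and 56.6 in DKO. After TAC it ranged from 54.3 to 150.2 (median 82.1) in CTL and from 58.3 to 95.3 (median 72.6) in DKO hearts, with the values of TAC CTL replicates 2 and 6 just above the sham CTL range. The log2 rise in CTL hearts was at least 0.46 (fitted 0.68 ± 0.19, adjusted p = 0.0121), and the fitted 0.34 ± 0.19 in DKO hearts did not pass (adjusted p = 0.205). Without TAC CTL replicate 1 the fitted rise in CTL hearts was 0.51, below the fold threshold.

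Both multiplexins rose. Col15a1 stood at 623, 712, 646 and 565 in sham CTL and 653, 672, 723 and 596 in sham DKO hearts and ranged from 643 to 1787 (median 1225) in TAC CTL hearts and from 914 to 1312 (median 1148) in TAC DKO hearts. TAC CTL replicates 2 and 6 lay within the sham range, and no TAC DKO heart did. The rise was 1.76-fold in CTL (log2 0.82 ± 0.21, adjusted p = 0.00569) and 1.69-fold in DKO hearts (0.76 ± 0.21, adjusted p = 0.00802). Col18a1 stood at 242, 309.9, 202 and 261 in sham CTL and 243, 243, 251 and 206 in sham DKO hearts and ranged from 288 to 519.8 (median 409) in TAC CTL hearts and from 303 to 490.0 (median 423) in TAC DKO hearts. It rose 1.6-fold (log2 0.67 ± 0.14, adjusted p = 0.00123) and 1.72-fold (0.78 ± 0.14, adjusted p = 0.000216). The lowest TAC CTL value lay in the sham range, and no TAC DKO value did. Without sham CTL replicate 3 the change in CTL hearts was 0.57 and was not called. Its 2 other probes were dim and were not called.

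No probe was called after TAC among the anchoring fibril gene Col7a1 (2 probes), the transmembrane class (12 probes of 4 genes) and the genes Col26a1 and Col28a1 (5 probes). In these classes 1 probe of Col25a1 was above background in sham CTL hearts and 1 of Col26a1 in sham DKO hearts, at means of 61.7 and 60.9, and every other probe was near background in all groups, so that no fold is given.

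The size of these rises depended on the scaling between sham and TAC arrays. With the values as deposited, 13 collagen probes were called higher in CTL and 11 in DKO hearts, against 1.99% and 3.3% of all probes. With each array centred on its median these were 5 and 4, against 0.411% and 0.451% of all probes. Median centring also moved the share of called probes of the whole array that were higher from 34.1% to 4.61% in CTL and from 36.6% to 4.67% in DKO hearts. The deposited scale shifted the median of all probes by 0.28 and 0.29. Every collagen probe that rose kept its sign under the 3 scalings. In CTL hearts Col1a1, Col5a1, Col8a1 (the probe with the larger change), Col8a2 and Col22a1 were called under all 3, and in DKO hearts Col5a1, Col8a1 (same probe), Col8a2 and Col14a1 (the dimmer probe). Col3a1 was called lower under all 3 in both genotypes. Under median centring Col1a1 read 1.08 in CTL hearts (adjusted p = 0.00272) and 0.68 in DKO hearts (adjusted p = 0.0515), and Col3a1 read -1.27 and -1.50. Col1a2 then read -0.39 in CTL hearts (limma adjusted p = 0.0422) and -0.45 in DKO hearts (adjusted p = 0.0161), short of the fold threshold. The calls of Col4a2, Col4a4, Col4a5, Col6a1, Col6a2, Col15a1, Col16a1 and Col18a1 were lost under median centring.

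**Figure D3:**
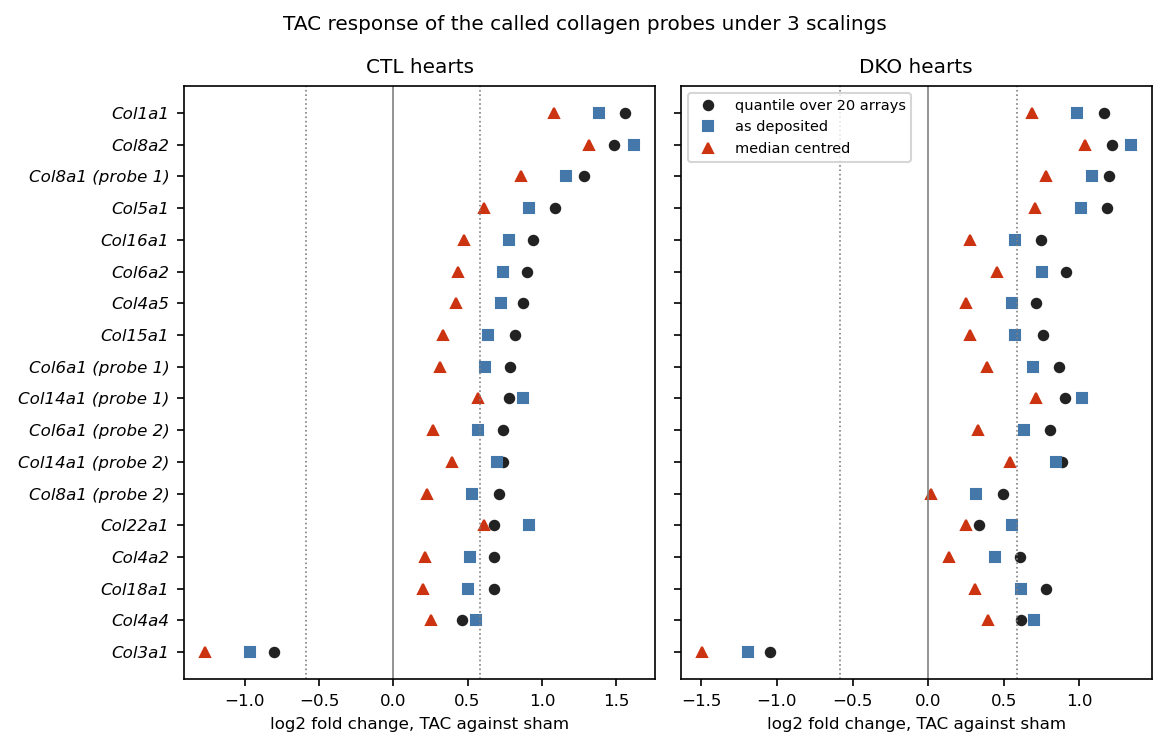
Log2 fold change after TAC (horizontal axis) of the called collagen probes in CTL and DKO hearts under quantile normalization over 20 arrays, the deposited values and median centring. Solid lines mark 0 and dotted lines the fold threshold of 1.5, and probes of a gene are numbered from the larger change in CTL hearts. Median centred values lie furthest left for every probe, and Col1a1, Col8a2, Col5a1 and the first Col8a1 probe stay right of the threshold in both genotypes.

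The question of the study was whether loss of the methyltransferases alters the response of the heart. Between DKO and CTL mice, 0 of 91 collagen probes were called in sham hearts, against 0.102% of all probes, and 0 after TAC, against 0.144%. By limma, 3 collagen probes in sham hearts had an unadjusted p under 0.05, against 5.55% of all probes, with a lowest adjusted p of 0.856. After TAC these were 5, against 8.99%, with a lowest adjusted p of 0.322. The 5 probes belonged to Col9a3, Col4a4, Col18a1, Col9a1 and Col27a1, and all were near background in both TAC groups. No collagen probe passed the interaction of genotype and surgery either, against 0.00221% of all probes, and 7 had an unadjusted p under 0.05, against 4.71%.

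The intervals show what size of genotype effect these arrays could miss. In sham hearts the log2 difference of DKO against CTL was 0.17 for Col1a1 (95% interval -0.43 to 0.76), -0.05 for Col3a1 (-0.51 to 0.40), 0.08 for Col8a2 (-0.66 to 0.81) and 0.02 for Col4a1 (-0.39 to 0.42). After TAC it was -0.22 for Col1a1 (-0.71 to 0.26), -0.17 for Col1a2 (-0.44 to 0.10), -0.29 for Col3a1 (-0.67 to 0.08), -0.32 for the brighter Col8a1 probe (-0.73 to 0.08) and 0.06 for Col5a1 (-0.24 to 0.37). Of the 18 genes named here, a fold of 1.5 lay inside the interval for Col1a1, Col8a1, Col8a2 and Col22a1 in sham hearts and for Col1a1, Col3a1, Col8a1 and Col8a2 after TAC, and outside it for the others. Among these others, the probes of Col5a2, Col22a1 and Col4a4 were near or little above background in some or all groups. A fold of intensity can understate that of RNA there, so their intervals do not exclude a 1.5-fold difference of RNA. The difference between genotypes in the TAC response was -0.39 for Col1a1 (-1.16 to 0.37, adjusted p = 0.947), -0.34 for Col22a1 (-0.90 to 0.22, adjusted p = 0.939) and 0.15 for Col4a4 (-0.11 to 0.41, adjusted p = 0.94). A missed threshold does not show that the genotypes were alike.

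**Figure D4:**
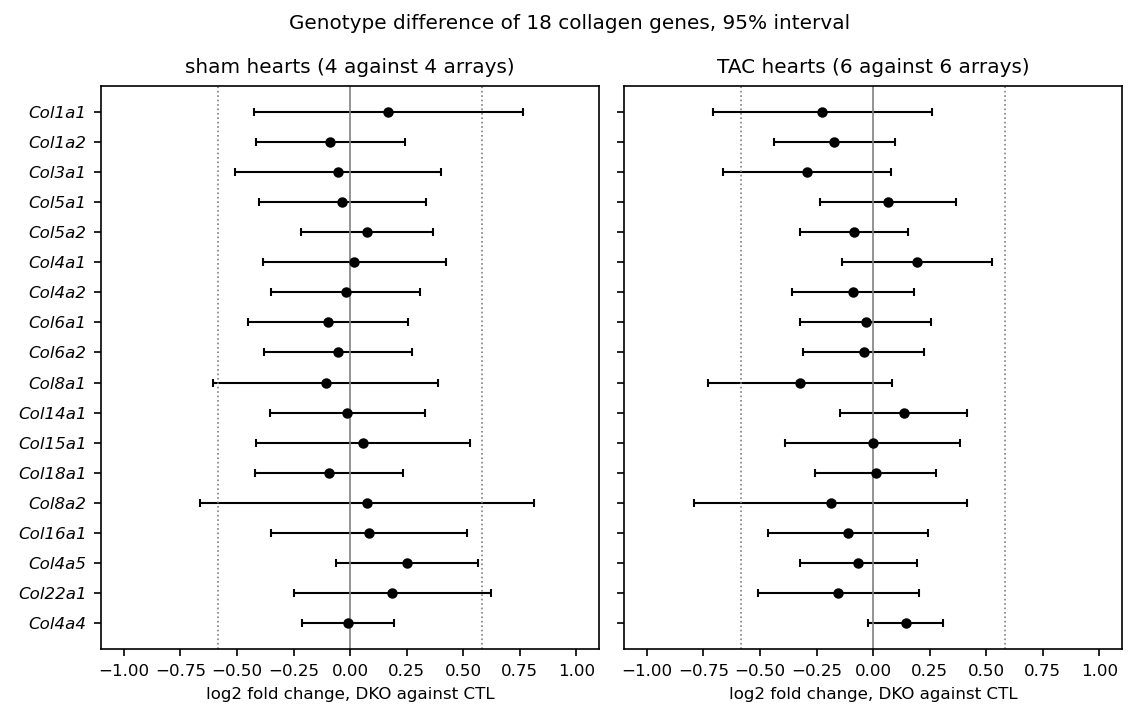
Log2 fold change of DKO against CTL hearts (horizontal axis) for the brightest probe of the 18 named collagen genes, in sham hearts (left) and TAC hearts (right). Points are estimates, bars 95% intervals, dotted lines the fold threshold of 1.5. Every interval includes 0.

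Genes that modify, process, cross-link or bind collagen moved in part with the chains. Of 38 such genes 34 had a probe, and 6 rose and 0 fell after TAC in each genotype, against 1.76% higher and 3.4% lower of all probes in CTL and 2.46% and 4.27% in DKO hearts. None was called between genotypes or for the interaction by limma, and an unadjusted p under 0.05 was found in 0 sham tests, 5 TAC tests and 0 interaction tests, against 5.55%, 8.99% and 4.71% of all probes. The median log2 fold change of the list was 0.11 in CTL and 0.10 in DKO hearts. Lysyl oxidase (Lox), which cross-links fibrils, rose from 73.7 ± 5.04 to 239 ± 90.5 in CTL (log2 1.60 ± 0.25, adjusted p = 4.58e-05) and from 73.6 ± 5.37 to 244 ± 99.4 in DKO hearts (1.64 ± 0.25, adjusted p = 2.46e-05). Its relative Loxl1 rose by 0.95 and 1.19 on the log2 scale. Pcolce, which enhances the trimming of procollagen, rose by 0.90 and 0.99, Sparc, a collagen-binding matrix protein, by 0.59 and 0.77, and Itga11, a subunit of a fibroblast collagen receptor, by 0.61 and 0.66. The prolyl 3-hydroxylase P3h3 was called in CTL hearts (0.63) and P3h2 in DKO hearts (0.60). The collagen chaperone Serpinh1 did not pass (-0.05 and -0.10). Under median centring 1 gene of the list was higher in CTL and 2 in DKO hearts, against 0.411% and 0.451% of all probes. In each genotype 6 were lower, against 8.5% and 9.2% of all probes in CTL and DKO hearts. Lox stayed called in both genotypes and Loxl1 in DKO hearts, and Bmp1, Colgalt1, P4ha1, Pcolce2, Plod1 and Ppib were the genes called lower in both.

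Markers of other cell types also moved with TAC, and their counts are to be read against the same shares of all probes and depended on the scaling. All 10 fibroblast markers were above background in every group, and 3 rose and 1 fell in CTL hearts, 4 and 1 in DKO hearts. Under median centring 0 of them rose and 3 fell (Dpt, Pdgfra and Scara5) in CTL hearts, and 1 rose (Mfap5) and 3 fell (Dcn, Dpt and Scara5) in DKO hearts. Their summed intensity was 9443 to 11904 in sham CTL, 9538 to 11721 in sham DKO, 9685 to 13591 in TAC CTL hearts and 9215 to 11451 in TAC DKO hearts, so that the ranges overlapped. Lum, a small proteoglycan of fibrils, rose by 0.97 and 0.80, and Dpt, another matrix protein, fell (-0.83 and -0.88). Of 8 genes of activated fibroblasts, 5 were above background in TAC CTL hearts and 4 in each other group. After TAC 2 rose in CTL and 3 in DKO hearts, with summed ranges of 4389 to 6385 and 3366 to 4303 in sham and 5601 to 11060 and 5054 to 10395 in TAC hearts. The sums of sham CTL and sham DKO hearts did not overlap. Such a sum follows its brightest genes most, and no share of other gene sets that separate in this way was computed. The log2 differences of the single genes between genotypes in sham hearts ran from -0.57 to 0.48, with a median of -0.06. Of the 8 genes 0 were called in that comparison, against 0.102% of all probes. Among them Comp rose from 66.3 ± 1.64 to 837 ± 569 in CTL hearts (3.20 on the log2 scale), whereas the Postn probe was near background in all groups. Of 9 cardiomyocyte genes 3 fell in each genotype (Pln, Ryr2 and Tnni3), with summed ranges of 165079 to 175204 and 167426 to 171647 in sham and 143086 to 159640 and 134624 to 156633 in TAC hearts. Of 6 leukocyte genes 1 fell in CTL (Lyz2) and 2 in DKO hearts (Lyz2 and Adgre1). Lyz2 read -1.58 and -1.84 on the log2 scale, whereas the median of the list was -0.16 and -0.24. The sums of the 6 genes did not overlap between sham (1331 to 2082 and 1699 to 2009.9) and TAC (779 to 1194 and 728 to 1015). Of 7 mural cell genes 2 rose in CTL and 4 in DKO hearts. Of 9 endothelial genes 1 (Cldn5) fell in CTL and 0 changed in DKO hearts, of 5 chondrocyte genes 1 (Sox9) rose in each, and of 2 Schwann cell genes 0 changed. Of 5 atrial genes 1 (Nppa) rose in CTL and 2 (Nppa and Myl4) in DKO hearts. Their sums varied widely, from 2933 to 8179 in sham CTL, 7608 to 18003 in sham DKO, 8943 to 32876 in TAC CTL and 24583 to 35568 in TAC DKO hearts. Under median centring the endothelial genes called lower were 5 in CTL hearts (Cdh5, Cldn5, Egfl7, Pecam1 and Tek) and 4 in DKO hearts (without Pecam1), the cardiomyocyte genes 5 in each and the leukocyte genes 3 in each. Of the risers, Comp and Nppa stayed called in both genotypes under that scaling, Sox9 in DKO hearts, and 2 mural genes in CTL and 1 in DKO hearts, while 1 mural gene (Rgs5) was called lower in CTL hearts. With the deposited values, Cldn5 was called lower in DKO hearts too. The part of these shifts in the collagen results was not tested. Between genotypes, the fibroblast gene Tcf21 was higher in DKO hearts after TAC (log2 0.36, adjusted p = 0.0282) without reaching the fold threshold.

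Collagen levels varied between TAC hearts of a genotype, and Col1a1 was set against 5 other genes as deviations from the genotype mean in 12 TAC hearts. Permutation tests were two-sided, with labels permuted within genotype, and adjusted over the 5 pairs. Col1a1 and Col3a1 deviated together although the one rose and the other fell after TAC (r = 0.75, permutation p = 0.0183, adjusted p = 0.0306, rho = 0.68, adjusted p = 0.0604). The atrial natriuretic peptide gene Nppa, a marker of loaded myocytes that is also among the atrial genes above, gave r = 0.72 (permutation p = 0.00189, adjusted p = 0.00945, rho = 0.76, adjusted p = 0.0533). Postn, at background level, gave r = 0.78 (permutation p = 0.0082, adjusted p = 0.0205, rho = 0.71, adjusted p = 0.0604). Col8a1 (r = 0.52, permutation p = 0.0598, adjusted p = 0.0748, rho = 0.43, adjusted p = 0.201) and Col4a1 (r = 0.43, permutation p = 0.214, adjusted p = 0.214, rho = 0.34, adjusted p = 0.315) did not pass. Within CTL and within DKO hearts, r was 0.79 and 0.64 for Col3a1, 0.75 and 0.77 for Nppa, 0.77 and 0.81 for Postn, 0.65 and 0.52 for Col8a1, and 0.66 and -0.03 for Col4a1, over 6 arrays each. Without TAC CTL replicates 2 and 6, which lay farthest from the median of Col1a1, r was 0.58 for Col3a1, 0.81 for Nppa, 0.66 for Postn, 0.38 for Col8a1 and 0.13 for Col4a1. No rank correlation passed after adjustment. The share of all probes that followed Col1a1 as closely was not computed, so these values do not single out the genes chosen. With single hearts left out, the adjusted p of r for Col3a1 was over 0.05 without TAC CTL replicate 3 (0.0648), 4 (0.0589) or 5 (0.0563) and without TAC DKO replicate 2 (0.107), and that for Postn without TAC CTL replicate 3 (0.0523) or TAC DKO replicate 3 (0.053). For Col8a1 it was 0.0366 without TAC DKO replicate 3.

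**Figure D5:**
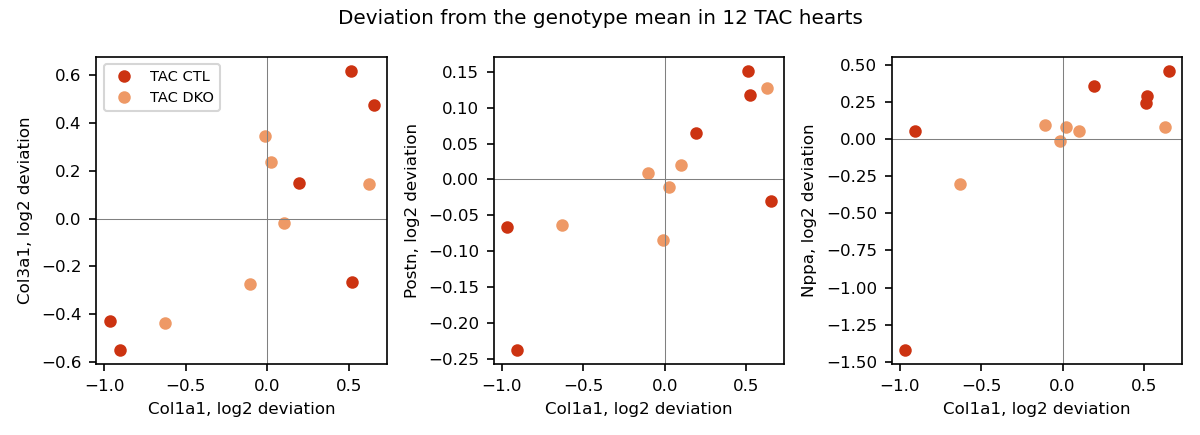
Deviation of log2 intensity from the genotype mean in the 12 TAC hearts for Col1a1 (horizontal axes) and for Col3a1, Postn and Nppa (vertical axes), with 6 CTL and 6 DKO hearts as points. The 2 CTL hearts at the far left are replicates 2 and 6, and 1 of them is also the lowest for Nppa.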

How the data were processed

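RNA of left ventricular tissue was measured on Illumina bead chips, and groups were taken from the sample labels. The deposited table holds linear intensity values for 45281 probes on 20 arrays, which the authors made with GenomeStudio V2010.3. How the authors subtracted background and normalized is not given in the sources used here, apart from what the values show. At a tolerance of 0.2%, 97.6 to 100% of sorted values were equal between sham arrays, 99.9 to 100% between TAC arrays, and 0.391 to 0.413% between the sets. The sets had medians of 47.5 and 58.6.

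Intensities were log2 transformed and quantile normalized over the 20 arrays. In R 4.3.3, limma 3.58.1 fitted every probe with the 4 group means as coefficients (16 residual and 6.64 prior degrees of freedom). A call needed a Benjamini-Hochberg adjusted p, over all probes, under 0.05 and a fold over 1.5, the thresholds of the study's methods. Genes came from the platform annotation, with 34885 probes of 1 symbol, 18 of several and 10378 of none. A gene was represented by its brightest probe. A fold against a group near background is a lower bound, taken from the higher of the background percentile and the probe's own value on each array. Values are named for 13 preset chains and for the 5 further genes with a called probe. The members, classes, gene lists and tests were chosen with earlier results of these data known. The arrays' number limits the precision. The limma p-values set a difference of group means against the spread between hearts within groups, shared over the 4 groups and drawn toward that of other probes. A difference between the sham and TAC sets does not enter this spread. The fit was also run on simulated data with independent spread and no difference between the sham and TAC sets. That run does not bear on surgery against set or on the scalings. The planned lengths and repeats of the protein chains were not analysed here.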

Additional observations from a re-analysis of the deposited data

Results flagged for a closer look

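In 72 groups of 4 or 6 arrays (18 genes in 4 groups), 2 held an array far from the others, and chance alone gives about 1 in 20. Col4a4 read 65.9 in sham CTL replicate 3, against 71.6 to 72.3 in the other sham CTL hearts, a gap of 0.887 of the range. Col16a1 read 188 in sham DKO replicate 4, against 255 to 262 in the others, a gap of 0.905 of the range. No cause was tested. No named gene had a called difference between genotypes in the response to TAC.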

How the results depend on the processing

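The counts of 0 called collagen probes between genotypes and for the interaction were the same under every alternative that was run, including each array left out. For TAC, median centring gave 5 higher calls in CTL and 4 in DKO hearts, against 0.411% and 0.451% of all probes. It gave 2 lower calls in DKO hearts, against 9.2% of all probes, where a Col4a5 probe joined Col3a1. Without the fold threshold 5 and 7 probes were lower, against 10.2% and 12.7% of all probes. Without single arrays, 14 to 16 probes were higher in CTL and 13 to 16 in DKO hearts, and 1 was lower. Adding 16 before log2, filtering dim probes (19763 probes kept, 33 of them collagen), trend and robust estimation, array weights and fits of the own groups kept the counts of risers within 1.5 times. Nothing in the labels ties equal replicate numbers together, and the main fit and the permutations did not take them as pairs. The correlations of same-numbered deviations ran from -0.19 to 0.38, over 0.1 in 6 of 10 pairs. The best partner had the same number in 5 of 10. Whether hearts of equal number were handled together was not tested. With the replicate number as a block in the limma fit, 16 and 16 probes were higher, against 2.13% and 3.11% of all probes in CTL and DKO hearts. In each genotype 1 was lower, against 3.9% and 4.77%, and 0 were called in the other comparisons. Col4a1 then read 0.49 in CTL and 0.67 in DKO hearts (limma adjusted p = 0.00088 and 3.01e-05, the latter called, unlike in the main fit). Replicates 5 and 6 existed only among TAC hearts. In the block fit the TAC change averaged over genotypes therefore rested on replicates 1 to 4. The block fit and the main fit thus weigh different hearts, and their difference does not show an effect of shared handling. Of 1060 values of single genes under an alternative, 1001 kept direction and call, 40 lost and 6 gained the call, and 13 changed sign. Most of these alternatives left out 1 array, in part from groups outside the comparison, and leaving out the fold threshold kept the fit itself. Many of the values could therefore move little, and the total is not a measure of stability under other scalings. Changes of sign were Col1a2 in CTL hearts (0.0318 with array weights, -0.13 to 0.0856 without single arrays), Col4a1 in CTL hearts (-0.17 median centred), Col4a5 in CTL hearts (-0.17 to 0.0711 without single arrays), and genes read by another probe: Col18a1 in DKO hearts (-0.18), Col8a2 in CTL hearts (-0.26), Col4a5 (0.87 and 0.71) and Col4a4 (-0.27 and -0.23). Without single TAC arrays, r of Col1a1 was 0.67 to 0.88 with Col3a1, 0.68 to 0.88 with Postn and 0.39 to 0.60 with Col8a1, and the adjusted p of these pairs crossed 0.05 in some of these sets. The cause of these differences was not tested.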
